A study of Mus musculus with 4 samples.

Results

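Collagen chains are the subunits of the triple-helical proteins that make up most of the fibrous matrix of connective tissue and the sheet-like basement membranes under epithelia and around vessels. The genes described here are all genes of the deposited feature list whose symbol is Col, a number, the letter a and a number, which gave 44 of 32285 genes. Their levels were read in single cells of the posterior mouse eye, from the retinal pigment epithelium (RPE, the pigmented layer that serves the photoreceptors) and the choroid, the vascular layer beneath it. The 4 libraries, made on the 10x Genomics Chromium droplet system, came from wild-type mice and from Vldlr-/- mice, which lack the very low density lipoprotein receptor, each aged 1 month or 2 months. Each of these 4 groups was 1 library. How many animals each library holds, and their sex and strain, are not given in the sources used here. In all groups the front of the eye and the neural retina were taken off, the RPE and choroid were scraped from the sclera, and the cells were freed with collagenase A, Dispase II and trypsin before dead cells were depleted. The cell numbers below are those recovered after this digestion, not those of the tissue. The series title concerns RPE energetics and subretinal fibrosis in neovascular macular degeneration, and the comparison asked here is which cells carry collagen transcripts and how they stand in the knockout.

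Collagen chains wind into a triple helix inside the cell, with help from hydroxylases and the chaperone Hsp47 (Serpinh1), and the molecule is trimmed and cross-linked outside it. Fibrillar collagens such as types I and III form the tensile fibrils of sclera and stroma, type IV forms the basement membrane network, and type VIII, a short-chain collagen, forms a lattice known from Descemet membrane and vessel walls. Bruch membrane, on which the RPE rests, holds basement membranes of the RPE on one side and of the choriocapillaris on the other, with collagen layers between them.

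The libraries held 11194301 to 23070271 UMIs (unique molecular identifiers, each standing for 1 captured RNA molecule), and 6529 cells were used. Both 1-month libraries were counted with 1 version of the software and both 2-month libraries with another, so age and counting cannot be told apart and genotypes were compared within an age only. Vldlr, the targeted gene, stood at 140 and 182 UMIs per 1000000 in wild-type RPE-like cells at 1 and 2 months and at 12.4 and 27.2 in knockout RPE-like cells. In rod-like cells at 1 month it stood at 323 (wild type, 150 UMIs) and 213 (knockout, 393 UMIs), and at 2 months at 214 (20 UMIs) and 18.7 (1 UMI). Which part of the gene the counted reads come from is not given, so a tag outside the deleted part would not check the label. With 1 library per group there is no replicate error, no test was run, and the 95% intervals given below cover counting error only. Levels are UMIs of a gene per 1000000 UMIs of the same cell class and library (CPM). A UMI stands for a molecule whatever the transcript's length, so no division by length was made, and the fraction of a gene's molecules that is captured may still differ between genes. Cells were grouped with every collagen gene left out of the grouping, and classes were named from other marker genes. All 9 fibroblast markers were detected in the fibroblast-like cells of each library, as were at least 7 of 8 RPE markers in the RPE-like cells, where Best1 alone was at 0 in the 1-month libraries. Detection alone does not part the classes, since all 8 RPE markers were also detected in fibroblast-like cells. By level, fibroblast markers summed to at least 8674 CPM in fibroblast-like cells and at most 224 in RPE-like cells of any library. RPE markers summed to at least 62943.5 CPM in RPE-like cells and at most 2132 in fibroblast-like cells.

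Most collagen transcripts were counted in 2 classes, whose leading chains differed. Over all cells 212504 collagen UMIs were counted, 46.9% of them in fibroblast-like and 40.6% in RPE-like cells, and no member was at 0, although 5 had under 100 UMIs. The fibrillar family held 37.2% of them, the short-chain network family (types VIII and X) 31.2%, and the basement membrane type IV family 12.5%. The fibril-associated collagens (FACIT) held 8.94%, the multiplexins (types XV and XVIII) 4.62%, the beaded-filament type VI chains 3.43% and the transmembrane collagens 2.01%. Fibroblast-like cells gave 1.38% (wild type) and 1.505% (knockout) of their UMIs to collagens at 1 month, and 0.630% and 0.655% at 2 months. The shares for RPE-like cells were 0.347% and 0.395% in the younger mice and 0.366% and 0.379% in the older ones. Endothelial-like cells stood at 0.303% and 0.311% and mural-like cells (pericytes and smooth muscle) at 0.251% and 0.301% at 2 months. Per cell class the share in RPE-like cells was thus not above all others. At 1 month 20 and 17 mural-like cells gave 1.07% and 0.958%, and at 2 months 12 wild-type Schwann-like cells gave 0.414%. Below the RPE-like share at 2 months were 14 knockout Schwann-like cells (0.363%) and cluster 19 (0.340% and 0.282%). B-like cells stood at 0.00472% and 0.00651% at 1 month. Fibrillar chains made up 78.3% and 79.0% of the collagen of fibroblast-like cells at 1 month, where the Pi16-rich cluster described below held 42.0% and 60.1% of it. At 2 months their share was lower. Col1a1, Col1a2 and Col3a1 then had 1322, 1969 and 1034 of 8844 collagen UMIs in wild type. In knockout they had 1985, 2912 and 2004 of 13519. Short-chain collagens made up 59.8%, 59.1%, 64.1% and 64.7% of the collagen of RPE-like cells in the 4 libraries. Of the 39 members with at least 100 UMIs, with the 4 libraries summed, 19 had their highest level in fibroblast-like cells. Of the others, 4 were highest in endothelial-like, 3 in RPE-like and 2 in mural-like cells. Not each of the 19 was highest there in every library. In the 20 and 17 mural-like cells of 1 month, Col6a1 stood at 201% and 127% of its fibroblast-like level. Col6a2 stood at 187% and 143%, Col5a2 at 114% and 135% and Col3a1 at 117% and 64.1%, but Col1a1 at 26.8% and 17.1%. A further 7 were highest in an unnamed cluster led by Gpx3, Penk, Optc and Crhbp (cluster 19), which was found at 2 months only, in 87 wild-type and 24 knockout cells. Another 2 (Col8a1 and Col9a3) were highest in an unnamed cluster led by the pigment genes Pmel and Mlana (cluster 15), whose collagen levels lay near those of RPE-like cells.

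**Figure D1:**
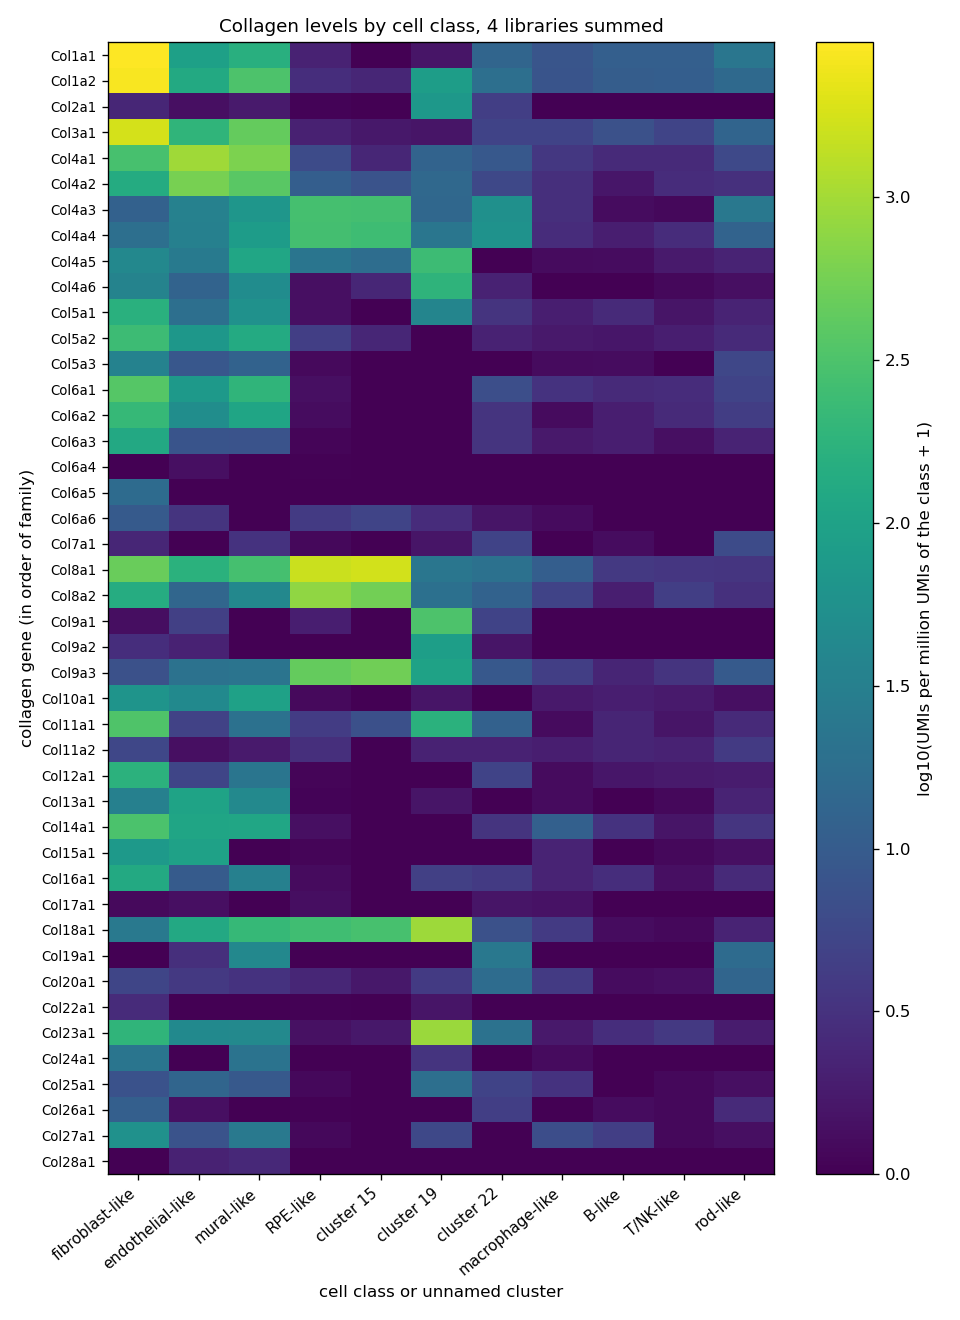
Level of all 44 collagen genes (rows, by number) in the main cell classes and unnamed clusters (columns), with the 4 libraries summed. The colour is log10 of CPM plus 1. Col1a1, Col1a2 and Col3a1 are brightest in fibroblast-like cells, Col4a1 and Col4a2 in endothelial-like cells, Col8a1, Col8a2, Col4a3, Col4a4 and Col9a3 in RPE-like cells and cluster 15, and Col18a1 and Col23a1 in cluster 19.

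The following 3 stretches of reference sequence show the starts of chain genes named in the results below, none of which rests on them. They come from RefSeq (GRCm38.p6), where 35 of the 44 members were matched by symbol. Col1a1, the fibrillar chain with most UMIs, was not among these. The 3 stretches overlap no annotated exon, and those of other leading chains that did were left out. The first is the whole of the 71 bases (chr1:82586850-82586920, plus strand) that part the starts of Col4a4, read leftwards, and Col4a3, read rightwards, a pair with like levels from class to class, as given below. The second is the 250 bases before the start of Col8a1 (chr16:57754738-57754987, minus strand), the collagen with the most UMIs in RPE-like cells. The third is the 250 bases before the start of Col3a1 (chr1:45311288-45311537, plus strand), a fibrillar gene of fibroblast-like cells. Capitals mark every match, on either strand, to the motifs searched, which were CCAAT, then TATAAA, then GGGCGG (the GC box) and last TAATCC (a site of the Otx type). No printed match overlaps a match of another motif.
Col4a4-Col4a3: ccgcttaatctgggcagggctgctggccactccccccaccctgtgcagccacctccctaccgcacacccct
Col8a1: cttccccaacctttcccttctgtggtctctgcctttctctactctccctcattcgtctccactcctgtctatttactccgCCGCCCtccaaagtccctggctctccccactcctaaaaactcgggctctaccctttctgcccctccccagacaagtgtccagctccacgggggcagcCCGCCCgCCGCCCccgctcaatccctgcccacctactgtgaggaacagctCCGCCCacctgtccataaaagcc
Col3a1: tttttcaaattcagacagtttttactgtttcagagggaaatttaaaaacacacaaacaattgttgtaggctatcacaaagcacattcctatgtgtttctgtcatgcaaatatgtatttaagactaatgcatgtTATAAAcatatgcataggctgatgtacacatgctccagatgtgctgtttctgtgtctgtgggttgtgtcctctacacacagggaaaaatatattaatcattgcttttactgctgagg
The Col4a4-Col4a3 stretch held none of the 4 motifs and had a GC content of 69.0%. Most promoters lack each motif in a window of that length. In the 71 bases before the start, 13.9% of 27025 promoters hold CCAAT, 4.72% TATAAA, 21.2% GGGCGG and 1.54% TAATCC. The Col8a1 stretch held 4 GC boxes and had a GC content of 60.8%, while 32.9% of 27025 promoters hold at least 1 GC box in the same 250 bases. The Col3a1 stretch held 1 TATAAA and no GC box and had a GC content of 35.2%, and 12.97% of promoters hold a TATAAA there. A match is a run of letters, not a shown binding site.

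Among fibrillar collagens, Col1a1 and Col1a2, the chains of type I collagen, were the most abundant, and 97.4% and 95.3% of their UMIs lay in fibroblast-like cells. Col1a1 (chr11:94936224-94953042, GRCm38, plus strand) gave 4064 CPM (wild type) and 4502 CPM (knockout) in 1-month fibroblast-like cells, against 942 and 962 CPM in those of 2 months. Col1a2 stood at 3598, 3788, 1403 and 1411 CPM in the same order. Col3a1, the single chain of type III collagen, stood at 2123 and 2630 CPM at 1 month and at 737 and 971 at 2 months. In the class sums both genotypes were thus far apart between the ages and closer within an age. The class was not made up alike: the Pi16-rich cluster described below held 28 and 60 cells at 1 month and 1 and 9 at 2 months. Without it Col1a1 stood at 1797 and 1485 CPM at 1 month and at 927 and 832 at 2 months. Col1a1 and Col1a2 did not keep 1 ratio: 1.13 and 1.19 UMIs of Col1a1 were counted per UMI of Col1a2 in fibroblast-like cells at 1 month and 0.67 and 0.68 at 2 months, against 0.13 in mural-like cells of both genotypes at 2 months. Without the Pi16-rich cluster, fibroblast-like cells at 1 month held 3779 and 3486 Col1a1 UMIs beside 3999 and 3535 of Col1a2. At 2 months they then held 1288 and 1608 beside 1923 and 2270. In cluster 19 of the wild type 127 Col1a2 UMIs were counted with 1 of Col1a1. Across the 26 combinations of library and class with at least 30 cells, Col1a1 was most like Col3a1 among 38 members compared (Spearman rho 0.97), ahead of its partner Col1a2 (0.91). These points share libraries and depth, so the rho values are descriptions.

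The regulatory fibrillar chains of types V and XI followed type I at lower levels. Col5a2 stood at 280, 260, 185 and 204 CPM in fibroblast-like cells (wild type and knockout at 1 month, then at 2 months), and Col5a1 at 149, 243, 86.2 and 94.5. Col11a1 stood at 447, 333, 229 and 269 CPM there, and it was also counted in cluster 19 at 161 and 175 CPM. Col2a1, the chain of cartilage and vitreous type II collagen, had 120 of its 143 UMIs in cluster 19, together with the type IX chains Col9a1 (342 and 263 CPM) and Col9a2 (85.1 and 93.1 CPM). Types II, IX and XI were thus counted side by side in that cluster.

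The type VI chains, which form beaded microfibrils around cells, were counted in like proportions in the class sums of fibroblast-like cells, but not in each of their clusters. Col6a1 stood at 375 and 476 CPM at 1 month and at 249 and 255 at 2 months, and Col6a2 at 216, 282, 143 and 146. Per Col6a2 UMI, 1.73, 1.69, 1.75 and 1.75 UMIs of Col6a1 were counted in the 4 libraries. Col6a3 stood at 131, 163, 74.1 and 89.7 CPM. In the wild type at 1 month, 243 Col6a2 and 30 Col6a3 UMIs were counted in the largest cluster, against 155 and 226 in the Pi16-rich cluster described below. The chains Col6a5 and Col6a4 stood apart: all 134 UMIs of Col6a5 were in fibroblast-like cells, 133 of them at 1 month, and Col6a4 had 2 UMIs in all.

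The 6 type IV chains are 3 pairs by their place in the genome. Their genes lie head to head: Col4a1 and Col4a2 on chromosome 8 have starts that overlap by 22 bases, Col4a4 and Col4a3 on chromosome 1 lie 71 bases apart (the stretch printed above), and Col4a6 and Col4a5 on the X chromosome lie 1308 bases apart. Across the 26 combinations of library and class, Col4a3 was most like Col4a4 (rho 0.95) and Col4a1 most like Col4a2 (0.88). Col4a5 with Col4a6 gave 0.85, and Col4a5 was slightly more like Col4a2 (0.87). Col4a1 stood at 1014 and 908 CPM in endothelial-like cells at 2 months, at 450 and 668 in mural-like cells, and at 264, 273, 400 and 252 in fibroblast-like cells, while in RPE-like cells it stood between 1.94 and 12.4. Col4a3 and Col4a4, the chains of the mature network of kidney and some epithelia, were the reverse. Col4a3 stood at 176, 239, 291 and 282 CPM in RPE-like cells and Col4a4 at 186, 252, 272 and 287. In those cells 0.95, 0.95, 1.07 and 0.98 UMIs of Col4a3 were counted per UMI of Col4a4. In fibroblast-like cells Col4a3 lay between 6.38 and 21.8 CPM. Col4a5, the third partner of that network, stood at 21.6 and 21.9 CPM in RPE-like cells at 2 months and at 245 and 221 in cluster 19, where Col4a6 stood at 173 and 195.

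Short-chain type VIII collagen was the main collagen of RPE-like cells. Col8a1 (chr16:57624258-57754737, GRCm38, minus strand) stood at 1522 and 1684 CPM at 1 month and at 1555 and 1651 at 2 months, and 82.6% of its UMIs lay in RPE-like cells. Col8a2 stood at 549, 649, 790 and 801 CPM, with 89.0% of its UMIs there. In the class sums all 4 libraries thus lay close together for Col8a1, and the 2-month libraries were higher for Col8a2. The class was not made up alike at the 2 ages. A shallow cluster held 184 of 216 and 128 of 148 RPE-like cells at 1 month, but 196 of 1351 and 128 of 588 at 2 months. In that cluster Col8a1 stood at 1310 and 1531 CPM at 1 month and at 903 and 723 at 2 months. Its Col8a2 level was 517, 618, 517 and 468 CPM in the same order. In fibroblast-like cells Col8a1 stood at 667, 412, 468 and 373 CPM and Col8a2 at 144, 146, 147 and 133. Col8a1 UMIs were found in 85.6%, 83.1%, 96.1% and 87.8% of RPE-like cells, and in 0.392% and 2.66% of B-like cells at 1 month. With every cell thinned to 1000 UMIs and shallower cells left out, the shares of RPE-like cells were 70.3%, 69.5%, 73.4% and 69.8%. The median RPE-like cell held 1968.5 and 1727 UMIs at 1 month and the median B-like cell 6138 and 5997. Col10a1, the other short-chain gene, known from growth plate cartilage, was counted at 98.9, 44.4, 44.9 and 52.8 CPM in fibroblast-like cells. In mural-like cells it stood at 395 and 822 CPM in only 20 and 17 cells at 1 month (42 and 61 UMIs), and at 11.2 and 29.3 CPM at 2 months, below the 28.0 and 56.9 CPM of endothelial-like cells. Its highest level in mural-like cells with the libraries summed thus rests on the few 1-month cells.

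Further RPE chains came from other families. Col9a3, a FACIT chain, stood at 686, 600, 439 and 462 CPM in RPE-like cells, where its usual partner Col9a2 had 0 UMIs, which allows at most 0.129 CPM over the class. Col9a1 had between 0 and 16 UMIs in RPE-like cells of each library. Across library and class Col9a3 was most like Col4a4 (rho 0.84) and unlike Col9a2 (-0.06). Col18a1, a multiplexin of basement membranes whose end fragment is endostatin, stood at 271, 388, 259 and 243 CPM in RPE-like cells and at 956 and 807 in cluster 19. In endothelial-like cells it stood at 182 and 92.4 CPM and in mural-like cells at 197 and 291. The other multiplexin, Col15a1, had 0 UMIs in mural-like cells at 2 months, which allows at most 2.64 CPM, and stood at 94.8 and 90.4 CPM in endothelial-like cells and at 36.5, 52.8, 108 and 124 in fibroblast-like cells.

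Remaining members were mostly fibroblast genes. Col14a1, a FACIT that sits on type I fibrils, stood at 239 and 420 CPM in fibroblast-like cells at 1 month and at 193 and 310 at 2 months. The knockout was thus above the wild type within each age. The transmembrane collagens split: Col23a1 stood at 223, 187, 180 and 151 CPM in fibroblast-like cells and at 949 and 791 in cluster 19, and Col13a1 at 106 and 97.8 in endothelial-like cells at 2 months. Col7a1, the anchoring fibril chain, had 43 UMIs over all cells.

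**Figure D2:**
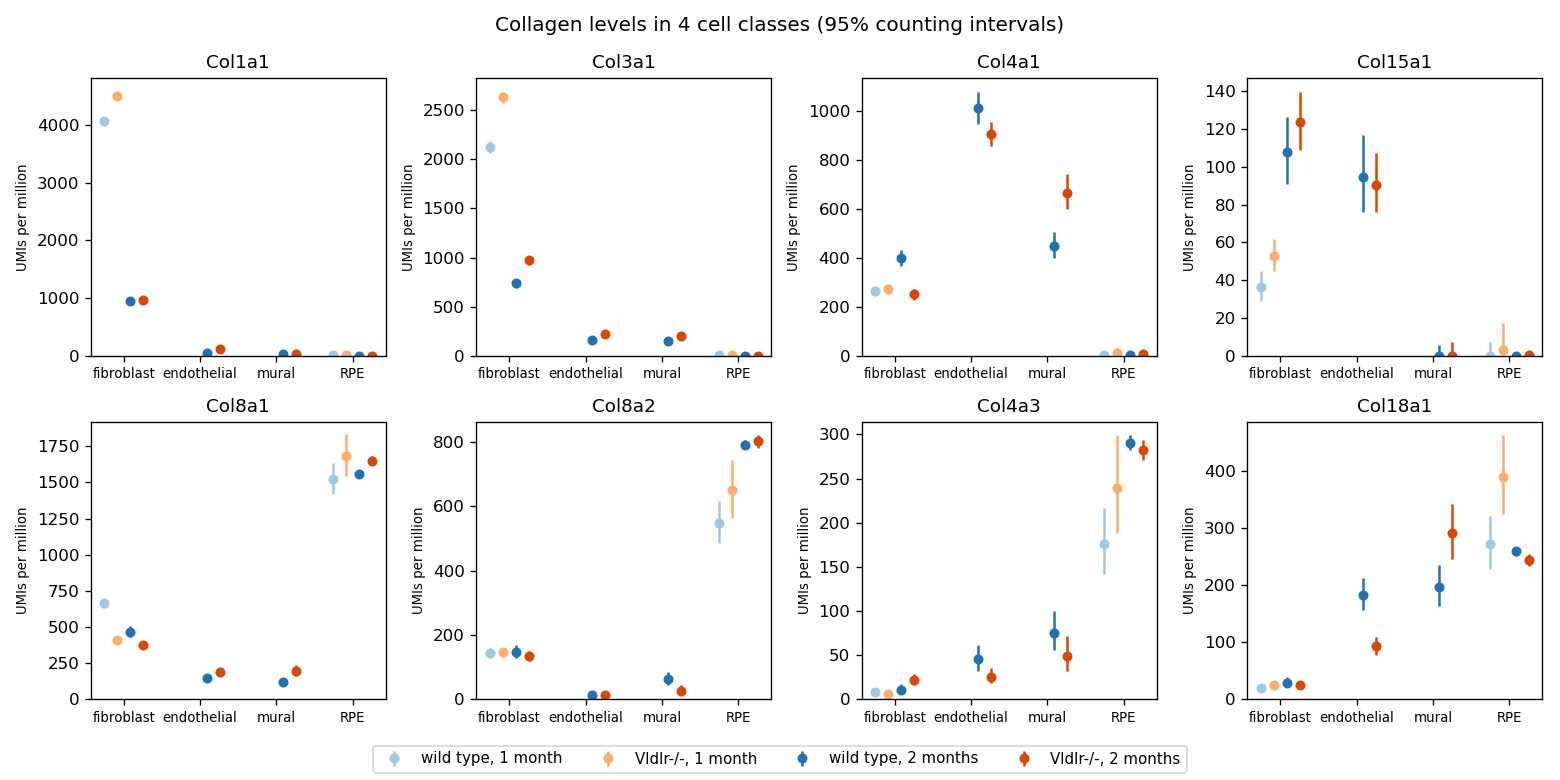
Level (CPM, linear axis) of 8 collagens in fibroblast-like, endothelial-like, mural-like and RPE-like cells, 1 point per library with its 95% counting interval, for classes with at least 30 cells. Col1a1 and Col3a1 are near 0 in RPE-like cells, whereas Col8a1 lies between 1522 and 1684 there in all 4 libraries.

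Type I collagen in RPE-like cells was counted at or near the level of cells that should lack it. Col1a1 stood at 9.70 (95% interval 3.15 to 22.6) and 18.6 CPM (6.84 to 40.6) in RPE-like cells at 1 month (5 and 6 UMIs) and at 0.551 and 1.01 at 2 months (8 UMIs in each). B-like and T/NK-like cells, which should lack it, stood together at 10.0 and 11.04 CPM at 1 month. At 1 month 2.31% and 4.05% of RPE-like cells held a Col1a1 UMI, against 6.67% and 5.32% of B-like and 8.59% and 10.6% of T/NK-like cells, whose median depths were 8973.5 and 9267 UMIs. With every cell thinned to 1000 UMIs, Col1a1 shares were 0.549% and 1.905% of RPE-like cells, 2.38% and 1.145% of B-like cells and 0.929% and 0.538% of T/NK-like cells. Within wild type the RPE-like share was thus the lowest of the 3 classes and within knockout the highest, on so few UMIs that the RPE-like level was not distinguishable from free RNA at this depth. At 2 months only 15 and 22 lymphocytes were recovered, too few to set that background. Over the 4 libraries Col1a1 in RPE-like cells was 0.0585% to 0.414% of its fibroblast-like level, while Col8a1 was 228% to 443% and Col18a1 885% to 1520%.

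In fibroblast-like cells the knockout libraries carried slightly more collagen than the wild-type ones in the sum over cells, an order that turned without 1 collagen-rich cluster, and few single chains stood far apart. Of 32 members with at least 30 UMIs over both libraries at 1 month, 22 were higher and 10 lower in knockout, where 54.9% of all 10992 genes were higher. Their median log2 ratio (knockout over wild type) was 0.21 against 0.035 for all genes. Only 1 of the 32 was at least 2-fold higher, where 1.9% of all genes were, and 2 were at least 2-fold lower, where 1.61% of all genes were. At 2 months 20 of 30 were higher and 10 lower, with a median of 0.13 against 0.0082 for all genes. Of these, 3 were at least 2-fold higher (2.57% of all genes) and 0 at least 2-fold lower (1.28% of all genes). The summed collagen UMIs gave a log2 ratio of 0.13 (95% interval 0.10 to 0.15) at 1 month and 0.056 (0.017 to 0.095) at 2 months. With every cell thinned to 1000 UMIs, which weighs cells equally, the sums were -0.22 and -0.044 and the 1-month median -0.24, the opposite direction. Without the single cell with most collagen UMIs in each library they kept their direction, at 0.12 and 0.038. Of 28 members compared at both ages, 14 were higher at both, 4 were lower at both and 10 were opposite, and none was 2-fold apart at both.

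Among the chains with 1 direction at both ages in the class sums, Col14a1 had log2 ratios of 0.81 (0.67 to 0.96) at 1 month and 0.68 (0.48 to 0.89) at 2 months. Col3a1 stood at 0.31 (0.26 to 0.36) and 0.40 (0.29 to 0.51), but at -0.35 and -0.051 without the Pi16-rich cluster described below, and at -0.41 in the largest 1-month cluster. Col8a1 was lower at both ages, at -0.69 (-0.80 to -0.59) and -0.33 (-0.48 to -0.18), as was Col27a1, a minor fibrillar chain, at -0.77 (-1.08 to -0.46) and -0.67 (-1.18 to -0.15). For type I the class sum was nearly level, with Col1a1 at 0.15 (0.11 to 0.19) and 0.030 (-0.071 to 0.13). Within the 4 clusters of 1 month Col1a1 stood at -0.34, -0.23, -0.083 and -0.54, and with thinned cells it stood at -0.29. Of the chains at least 2-fold apart at 1 age, Col10a1 had most UMIs. It stood at 98.9 CPM (wild type) and 44.4 (knockout) at 1 month (log2 ratio -1.15, -1.48 to -0.84) and stood at 44.9 and 52.8 at 2 months. The others at 1 month were Col6a6 (6 and 62 UMIs) and Col11a2 (22 and 11 UMIs). At 2 months they were Col4a6 (39.2 and 95.5 CPM), Col9a3 (8.55 and 19.9 CPM) and Col25a1 (4 and 35 UMIs). Markers of RPE summed to 1068 CPM in wild-type and 2132 in knockout fibroblast-like cells at 2 months, with all 8 detected in both, and Col9a3 is a chain of RPE-like cells. The part of this in the Col9a3 difference was not tested. In the main 2-month cluster, with 116 of 136 and 146 of 181 cells, Col9a3 had 12 and 14 UMIs (8.94 and 7.74 CPM), so the higher knockout value came from the remaining cells.

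**Figure D3:**
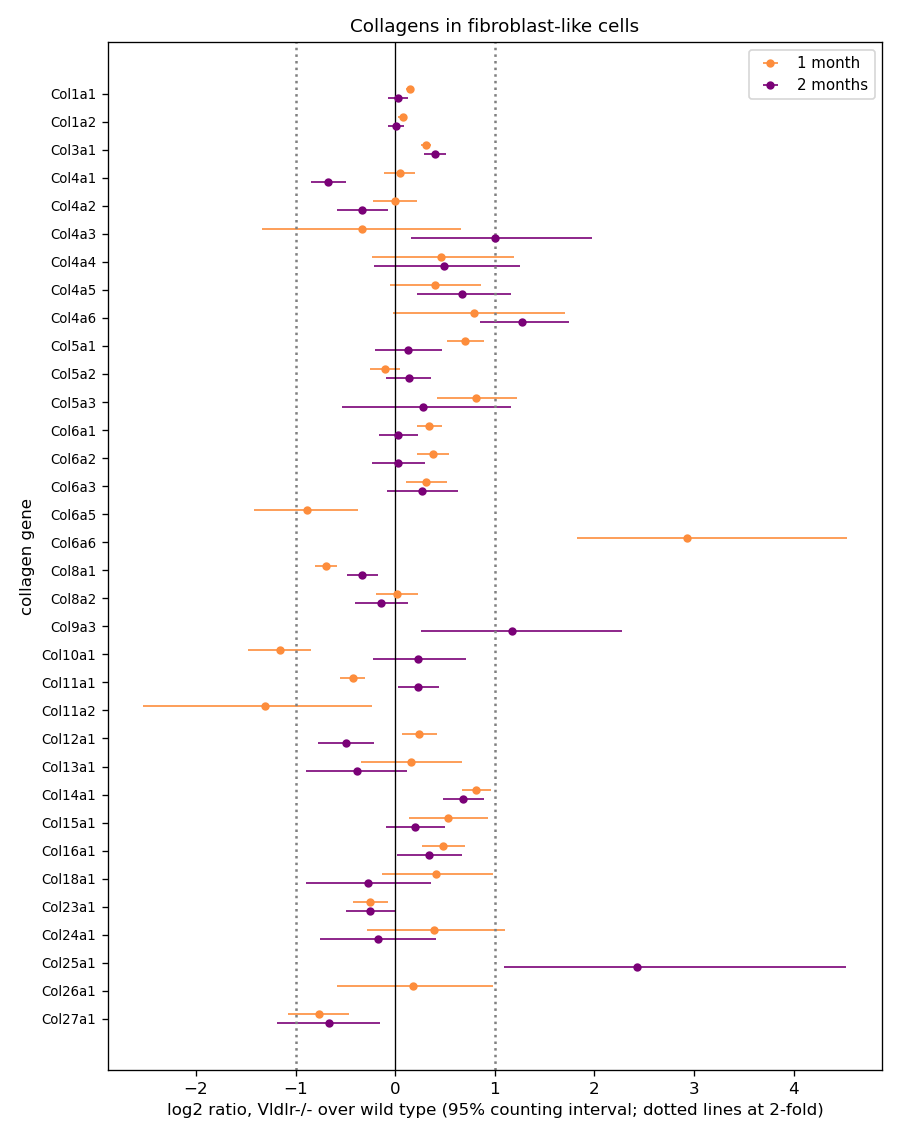
Log2 ratio of knockout over wild type for each collagen with at least 30 UMIs in fibroblast-like cells, at 1 month (orange) and 2 months (purple), with 95% counting intervals. Col14a1 and Col3a1 are right of 0 at both ages and Col8a1 and Col27a1 left of it, and most points lie within the dotted 2-fold lines.

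The slight excess in knockout fibroblast-like cells went with which fibroblasts were recovered. A cluster rich in Pi16, Sfrp2 and Clec3b, genes of adventitial fibroblasts, gave 5.39% (wild type) and 4.28% (knockout) of its UMIs to collagens at 1 month, that is 53897 and 42805 CPM, against 8968 and 7617 CPM in all other fibroblast-like cells. It made up 28 of 338 wild-type fibroblast-like cells (8.28%) and 60 of 493 knockout ones (12.2%) at 1 month, and 1 of 136 (0.735%) and 9 of 181 (4.97%) at 2 months. These few cells held 42.0% of all collagen UMIs of the class in the 1-month wild type and 60.1% in the 1-month knockout. For Col1a1 the shares were 60.5% and 74.0%, and for Col12a1, a FACIT of dense connective tissue, 80.05% and 77.1%. In the 28 and 60 cells the collagen share of a single cell ran from 0.185% to 22.8% with a median of 3.73% in wild type, and from 0.284% to 13.3% with a median of 3.19% in knockout. The richest cell alone held 17.2% and 12.3% of the cluster's collagen UMIs.

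Within all clusters but the shallow one the order of the genotypes turned for summed collagens, which the most abundant chains weigh most. Summed collagens gave a log2 ratio of -0.33 in the Pi16-rich cluster, -0.30 in the largest 1-month cluster (212 and 305 cells) and -0.13 in a cluster led by Dcn, Apod, Myoc and Ccn2 (36 and 43 cells). A cluster of shallow cells (62 and 83 cells) stood at 0.021. At 2 months the main cluster (116 and 146 cells) stood at -0.079. Medians over the members compared lay nearer to level. They were -0.017 in the Pi16-rich cluster (10 of 21 higher in knockout) and -0.059 in the largest 1-month cluster (12 of 29). The Dcn, Apod and Myoc cluster gave -0.073 (6 of 17), the shallow cluster -0.021 (7 of 14) and the main 2-month cluster -0.087 (11 of 29). Without the Pi16-rich cluster the class as a whole gave -0.24 (-0.27 to -0.21) at 1 month and -0.11 (-0.15 to -0.065) at 2 months, and Col1a1 (-0.28), Col1a2 (-0.34) and Col3a1 (-0.35) were then lower in knockout at 1 month. Col14a1 without that cluster still stood at 0.56 (0.37 to 0.76) and 0.37 (0.14 to 0.59). The composition of the class and the summed level within most of its clusters thus pointed opposite ways, without a shift shared by most members. Whether animals or dissection set the share of Pi16-rich cells cannot be told apart from genotype with 1 library per group.

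Single chains differed between the clusters. Col6a5 had all of its 1-month UMIs, 79 in wild type and 54 in knockout, in the Pi16-rich cluster, and Col6a6 had 60 of 62 knockout UMIs there. In that cluster Col6a5 stood at 312 and 85.9 CPM and Col6a6 at 23.7 and 95.5, so these chains were in opposite order between the genotypes. Col3a1 stood at 4262 and 6997 CPM there (log2 ratio 0.71, 0.62 to 0.81) and Col1a1 at 22890 and 15773 (-0.54, -0.58 to -0.49). Col8a1 stood at 604 and 173 CPM (-1.80, -2.17 to -1.44). Col10a1 had 0 UMIs in the cluster, which allows at most 3.40 CPM, and stood at 120 and 60.4 CPM in the largest 1-month cluster (-0.99, -1.34 to -0.64). Col14a1 was higher in knockout in the largest 1-month cluster (165 and 270 CPM), in the Pi16-rich cluster (849 and 1079) and in the main 2-month cluster (184 and 235), was near level in the Dcn, Apod and Myoc cluster (145 and 151) and was lower in the shallow cluster (243 and 157, on 25 and 20 UMIs). Col4a6 stood at 41.0 and 108 CPM in the main 2-month cluster (1.39, 0.96 to 1.86).

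**Figure D4:**
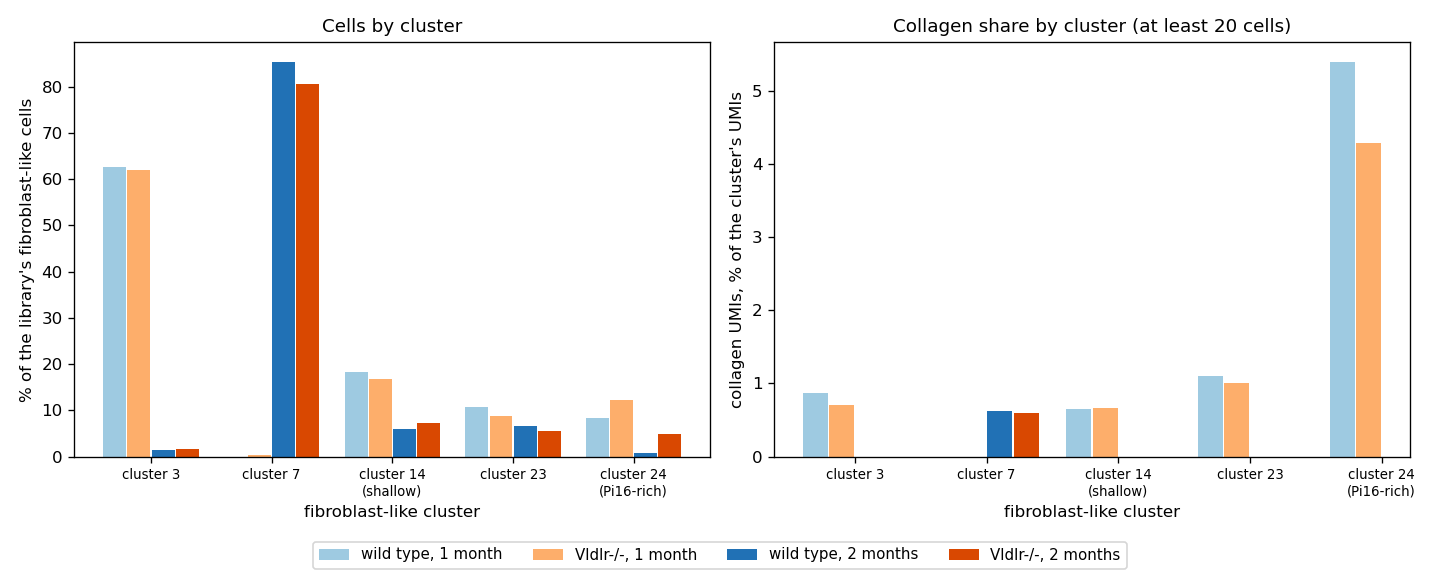
Left, share of each library's fibroblast-like cells in each of 5 clusters (%). Right, collagen UMIs as a share of the cluster's UMIs (%), for clusters with at least 20 cells in the library. The Pi16-rich cluster has the highest collagen share, 5.39% and 4.28%, and a larger share of the cells in knockout than in wild type at both ages.

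In the class sums, RPE-like cells of the 2 genotypes carried collagens at close levels at 2 months, with the knockout somewhat higher at 1 month. The summed log2 ratio was 0.19 (0.081 to 0.29) at 1 month and 0.052 (0.031 to 0.072) at 2 months. With thinned cells the 1-month sum was 0.012. At 1 month 5 of 6 members compared were higher and 1 lower in knockout, with a median log2 ratio of 0.34 against 0.011 for all genes. None was 2-fold higher (3.49% of all genes) and none 2-fold lower (2.57% of all genes). At 2 months 11 of 15 were higher and 4 lower, with a median of 0.076 against 0.067 for all genes. Of these, 2 were at least 2-fold higher (3.1% of all genes), Col11a2 with 19 and 27 UMIs and Col20a1 with 12 and 20, and 0 were 2-fold lower (1.02% of all genes). The main chains stood within narrow intervals at 2 months: Col8a1 at 0.086 (0.055 to 0.12), Col8a2 at 0.019 (-0.025 to 0.063), Col4a3 at -0.042 (-0.12 to 0.032), Col4a4 at 0.076 (0.00057 to 0.15) and Col9a3 at 0.073 (0.014 to 0.13). Col18a1 stood at 0.52 (0.16 to 0.87) at 1 month, on 140 and 125 UMIs, and at -0.088 (-0.17 to -0.0083) at 2 months.

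The RPE-like class held clusters whose type IV levels lay further apart than those of the genotypes. A cluster rich in Malat1, a nuclear RNA, with 112 wild-type and 106 knockout cells at 2 months, stood at 524 and 390 CPM for Col4a3 and at 579 and 406 for Col4a4. The other 4 clusters lay between 117 and 286 CPM for Col4a3 and between 97.9 and 231 for Col4a4 at 2 months. Col8a2 stood at 479 and 641 CPM in the Malat1-rich cluster and at up to 1173 and 1221 in another. Between genotypes, Col4a3 was lower in knockout in all 5 clusters, from 134 and 117 CPM in the lowest to 524 and 390 in the Malat1-rich one. Col9a3 stood at 303 and 143 CPM in the largest cluster, was lower in knockout in 4 of 5 clusters, and stood at 545 and 624 in the Malat1-rich one. The Malat1-rich cluster was a larger share of the knockout RPE-like cells, and without it the summed collagens at 2 months gave -0.050 in place of 0.052, with Col9a3 at -0.32. The median cell of this cluster held 23899.5 UMIs, against 1936.5 to 12230 in the other RPE-like clusters, so depth moved with it, and its part in these levels was not tested.

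**Figure D5:**
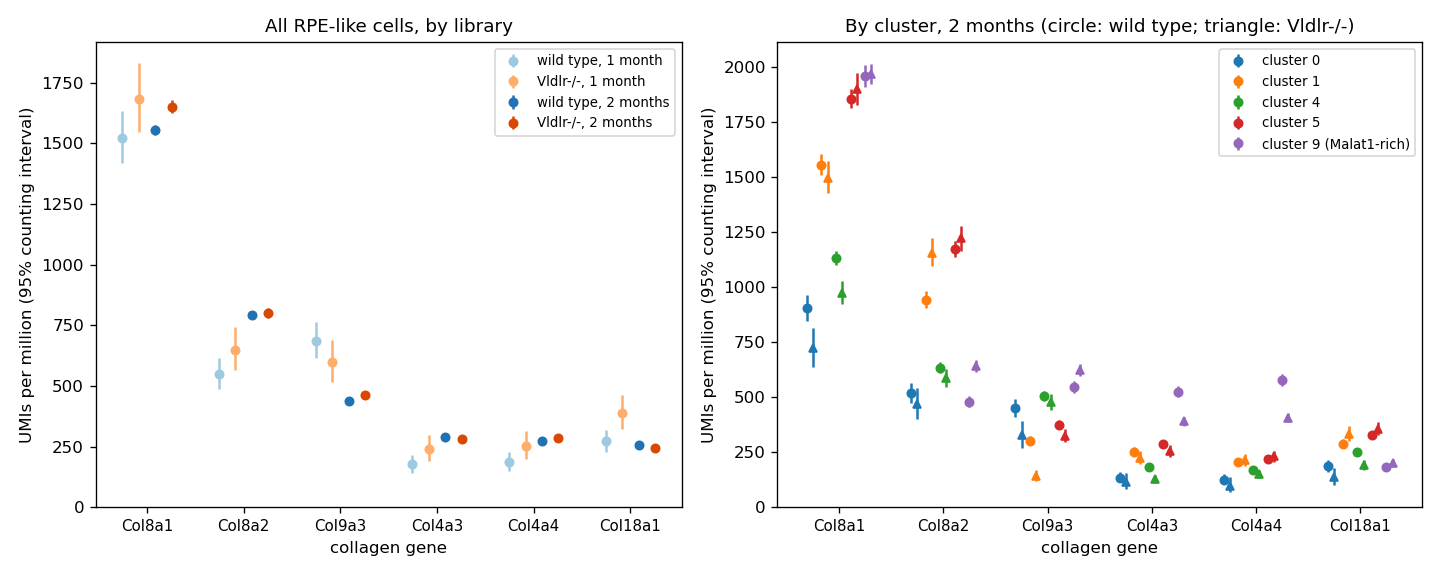
Level (CPM, 95% counting intervals) of 6 collagens in RPE-like cells by library (left) and by cluster at 2 months (right, circles wild type and triangles knockout). Col8a1 lies between 1522 and 1684 in the 4 libraries, while the Malat1-rich cluster stands above the others for Col4a3 and Col4a4.

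In endothelial-like cells at 2 months 14 of 23 collagens were higher and 9 lower in knockout, and the summed log2 ratio was 0.039 (-0.029 to 0.11). At least 2-fold higher were 4 (3.15% of all genes), and 0 were 2-fold lower (2.05% of all genes). The 4 were Col1a1 (50.6 and 125 CPM), Col4a6 (3 and 27 UMIs), Col10a1 (28.0 and 56.9 CPM) and Col14a1 (70.0 and 141 CPM). With thinned cells 0 members were 2-fold higher. The 9 fibroblast markers summed to 292 CPM in the wild-type and 786 in the knockout endothelial-like cells, with 8 of 9 detected in each and Dpt at 0, and their part in these differences was not tested. The 4 chains highest in this class with the libraries summed (Col15a1 only so, since at 2 months it was higher in fibroblast-like cells) stood below 0. Col4a1 stood at -0.16 (-0.28 to -0.038) but at 0.11 with thinned cells, Col4a2 at -0.24 (-0.39 to -0.084), Col13a1 at -0.11 (-0.49 to 0.27) and Col15a1 at -0.072 (-0.47 to 0.34). Col18a1 stood at -0.98 (-1.31 to -0.65). The 9 mural markers summed to 3807 CPM in wild-type and 2203 in knockout endothelial-like cells, all detected in both, and Col4a1, Col4a2 and Col18a1 are also chains of mural-like cells. The part of this in their values was not tested. In mural-like cells 13 of 20 were higher and 7 lower, with a summed log2 ratio of 0.26 (0.16 to 0.37). With thinned mural-like cells the sum was 0.046 and 0 members were 2-fold apart either way. Without thinning Col14a1 alone was 2-fold higher (2.31% of all genes), and Col4a4 and Col8a2 were 2-fold lower (2.58% of all genes). Both are chains of RPE-like cells, and the 8 RPE markers summed to 5668 CPM in wild-type and 2369 in knockout mural-like cells, with Best1 at 0 in both. The 9 fibroblast markers summed to 585 and 1148 CPM there, with 7 and 6 detected, and Col14a1 is a chain of fibroblast-like cells. The part of either list in these values was not tested. Basement membrane chains stood at 450 and 668 CPM (Col4a1) and at 295 and 441 (Col4a2) in mural-like cells, with log2 ratios of 0.57 (0.34 to 0.80) and 0.58 (0.29 to 0.87).

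Genes that make and handle collagen did not share 1 direction in fibroblast-like cells. Of 47 genes for hydroxylation, export, trimming, cross-linking, uptake and cleavage of collagen, 39 could be compared in fibroblast-like cells at 1 month, with 23 higher, 16 lower, and a median log2 ratio of 0.030. Of all genes 54.9% were higher. Only P4ha3 was 2-fold higher, where 1.9% of all genes were, and only Itga10 2-fold lower, where 1.61% were. At 2 months 17 of 36 were higher and 19 lower, with a median of -0.048, where 50.9% of all genes were higher. Tll1, Pcolce2 and Itga1 were 2-fold higher (2.57% of all genes) and Itga10 2-fold lower (1.28% of all genes). The lists went different ways at 2 months: 2 of 13 hydroxylation and glycosylation genes were higher and 11 lower (median -0.25), while all 5 trimming genes compared were higher (median 0.20). At 1 month 11 of 14 hydroxylation and glycosylation genes were higher (median 0.047). Sparc, a collagen-binding matricellular protein, stood at 3355 and 4595 CPM at 1 month (0.45, 0.41 to 0.49) and at 1048 and 1096 at 2 months. Serpinh1, the collagen chaperone Hsp47, stood at 495 and 580 CPM and at 343 and 278, the opposite order. The lysyl oxidase Loxl1 stood at 265 and 265 CPM and at 272 and 190. Itga10, a collagen-binding integrin chain, was 2-fold lower at both ages (-1.22 and -1.08, on 78 and 42 and on 39 and 27 UMIs). In RPE-like cells Pcolce, which enhances trimming of the type I and III end piece, stood at 384 and 537 CPM at 1 month and at 404 and 498 at 2 months, with log2 ratios of 0.49 (0.18 to 0.79) and 0.30 (0.25 to 0.36). RPE-like cells thus carried Pcolce while Col1a1 stood at 18.6 CPM or less there in every library.

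In the classes with few collagen UMIs the comparison rested on counts near the limit. In macrophage-like cells 1 member could be compared at 1 month, Col1a1, which was 2-fold lower on 22 and 8 UMIs, where 2.42% of all genes were 2-fold lower and 1.53% higher. At 2 months Col8a1 was 2-fold lower (22 and 10 UMIs) and Col14a1 stood at 18 and 12 UMIs, where 4.74% of all genes were 2-fold lower and 4.23% higher. In B-like cells 0 of 2 were 2-fold apart (1.16% of all genes each way), as in T/NK-like cells (1.16% higher and 1.66% lower). In rod-like cells at 1 month all 5 members compared were higher in knockout. The 3 rod-like clusters held 59, 61 and 43 wild-type cells and 286, 134 and 59 knockout cells, so the class was not made up alike. Of these, Col19a1 (3 and 34 UMIs) and Col20a1 (1 and 30 UMIs) were 2-fold higher, where 4.16% of all genes were, and 0 were 2-fold lower, where 0.912% were.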

How the data were processed

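The data were single-cell RNA libraries of RPE and choroid from wild-type and Vldlr-/- mice, 1 library per genotype and age. The authors deposited raw UMI counts per gene and barcode, unnormalized whole numbers, and per the file headers they were made with Cell Ranger 6.0.2 (1 month) and 7.0.1 (2 months). Other versions stand in the submitters' processing notes (Cell Ranger 3.0, with Seurat 4.0 and the build mm9). The sources used here do not say whether intron reads entered the counts.

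Of 7943 barcodes, 6555 passed a minimum of 300 genes and a maximum of 30% mitochondrial UMIs. Scrublet marked 26 of them, under 0.5%, so doublet removal is not taken to have worked. Counts scaled to 10000 per cell, 1983 variable genes (17 collagens removed from 2000), 30 principal components, 15 neighbours and Leiden resolution 1 (scanpy 1.11.5, leidenalg 0.10.2) gave clusters, named from marker lists. Clusters led by other genes, with markers of 2 classes or with pigment genes alone stayed unnamed, by rules written after the clusters were seen. Libraries shared 1 barcode.

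Counts were summed per class and library and given per 1000000. Log2 ratios add 0.5 counts and cover genes with at least 30 UMIs over both libraries, in classes with at least 30 cells in each, and a gene is called at 2-fold. Intervals at 95% are exact (Poisson, Clopper-Pearson, conditional binomial) and cover counting error only. The calculation was tested on simulated data. Named members are the 2 of each family with most UMIs and those 2-fold apart with at least 300 UMIs or at both ages; further members were named after their values were seen. Alternatives changed filters, scaling, depth, free RNA, clustering, doublets and the count minimum. The members and lists were chosen with earlier results of these data known. Positions are from GENCODE M21 (GRCm38). Other software was matplotlib 3.10.9, pandas 2.3.3, igraph 0.11.9, scipy 1.17.1 and numpy 2.4.6 under Python 3.11.15.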

Additional observations from a re-analysis of the deposited data

Results flagged for a closer look

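Col18a1 in RPE-like cells, Col11a1 in fibroblast-like cells and Col12a1 in fibroblast-like cells had knockout to wild-type ratios in opposite directions at the 2 ages, each with a counting interval apart from 0. The difference between the ages was not tested, and age cannot be told apart from the software version. For Col18a1 in RPE-like cells the log2 ratio was 0.52 at 1 month and -0.09 at 2 months. For Col11a1 it was -0.42 at 1 month and 0.23 at 2 months. For Col12a1 it was 0.24 at 1 month and -0.49 at 2 months, and most Col12a1 UMIs at 1 month lay in the Pi16-rich cluster (80.05% in wild type, 77.1% in knockout). Within clusters of 1 month Col12a1 stood at -0.78 in the Pi16-rich cluster, at -0.91 in the largest cluster and at 0.90 in the cluster led by Dcn, Apod, Myoc and Ccn2, and at -0.37 in the main cluster of 2 months. With cells thinned to 1000 UMIs the class values of Col12a1 were -0.15 and 0.10.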

How the results depend on the processing

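No paired analysis was possible because each group is 1 library and the labels carry no replicate numbers. Of 312 recomputed counts, medians and sums, 263 kept their side and size, 41 moved and 8 reversed. Of 1132 values of single members, 56 moved and 20 reversed. Of 120 collagen shares of UMIs, 52 moved beyond their counting interval, by most with free RNA subtracted. That setting takes off the whole lymphocyte profile, the lymphocytes' own genes included, so it also lowers the total and over-corrects: fibroblast-like shares were then 2.78% and 3.03% in the younger mice, 1.46% and 1.56% in the older ones, and RPE-like shares 0.533% to 0.629%. The causes were not tested, apart from the fewer cells or genes that some settings hold by construction.

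With cells thinned to 1000 UMIs the fibroblast-like sum was -0.22 at 1 month and -0.044 at 2 months and the 1-month median -0.24. Collagens 2-fold higher and lower were then 0 and 1 at both ages. At 1 month Col1a1 stood at -0.29, Col1a2 at -0.38, Col6a3 at -0.84, Col12a1 at -0.15, Col15a1 at -0.23 and Col16a1 at -0.24, and Col12a1 at 0.10 at 2 months. In endothelial-like cells 0 were 2-fold higher, with Col4a1 at 0.11. In mural-like cells 0 were 2-fold apart either way, with a sum of 0.046. In RPE-like cells the sum was 0.012 at 1 month and -0.054 at 2 months, where 0 were 2-fold higher, Col8a1 stood at -0.024 and Col9a3 at -0.32.

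Without the Pi16-rich cluster (added after the data were seen) the fibroblast-like sums were -0.24 and -0.11, and 0 were 2-fold higher and 0 lower at 1 month. Col1a1 stood at -0.28, Col1a2 at -0.34, Col3a1 at -0.35 and Col5a1 at -0.043 at 1 month, and Col3a1 at -0.051 at 2 months. Leaving out the shallow fibroblast-like cluster, also added, moved no count, median or sum. Without the Malat1-rich cluster (added likewise) the 2-month RPE-like sum was -0.050, 0 were 2-fold higher, and Col4a4 stood at -0.011, Col8a1 at -0.055 and Col9a3 at -0.32.

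Scaling by the median of gene ratios gave sums of 0.090 in fibroblast-like cells at 1 month and -0.016 in RPE-like cells at 2 months, and 2 higher and 1 lower in endothelial-like cells. Subtracting free RNA left 1 lower in fibroblast-like cells at 1 month, 1 lower in endothelial-like cells, and 1 higher and 4 lower in RPE-like cells at 2 months, with a sum of 0.081 and Col4a1 at -5.99, where the free RNA was read from only 15 and 22 lymphocytes. With the highest-scoring barcodes left out as doublets the fibroblast-like sums were 0.092 and 0.12, and in endothelial-like cells 1 was lower and Col8a1 stood at -0.015. At least 1000 genes per barcode gave 2 higher and 1 lower in endothelial-like cells, and 1 higher and a sum of 0.29 in RPE-like cells at 1 month. A 15% mitochondrial limit gave 0 higher in mural-like cells and 1 higher with a sum of 0.079 in RPE-like cells at 2 months. Resolution 0.5 gave an RPE-like sum of -0.014 at 1 month.

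With at least 10 UMIs 4 were higher and 5 lower in mural-like cells and 1 higher in RPE-like cells at 1 month. With at least 100 UMIs 0 higher and 1 lower remained in fibroblast-like cells at 1 month, 1 higher at 2 months, 0 and 0 in mural-like cells and 0 higher in RPE-like cells at 2 months. Depth limits members under 100 UMIs and classes under 100 cells.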

Other observations

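Members with few UMIs were found in small cell groups outside the main comparison. Col28a1, a collagen known from peripheral nerve, had 36 of its 41 UMIs in Schwann-like cells (20 in 12 wild-type and 16 in 14 knockout cells at 2 months) and 0 in fibroblast-like cells, which allows at most 0.341 CPM. Col20a1 was spread over classes. Of its 184 UMIs, 38 lay in fibroblast-like cells, the most of any class. It had 5, 2 and 14 in the 2, 12 and 14 Schwann-like cells of wild type at 1 month, wild type at 2 months and knockout at 2 months. Col19a1 had 53 of its 139 UMIs in mural-like cells, at 54.5 CPM (wild type) and 35.2 CPM (knockout) at 2 months, and 0 in fibroblast-like cells. Col25a1, a transmembrane collagen with 167 UMIs in all, had most of any class in fibroblast-like cells (58). It had 10 UMIs in 26 knockout melanocyte-like cells at 2 months and 0 in 10 wild-type ones, which held 13541 UMIs. Col17a1, the hemidesmosome collagen of surface epithelia, had 13 of its 28 UMIs in an unnamed cluster of 19 cells led by Krt15 and hemoglobin genes. Col26a1, with 103 UMIs in all, had 89 of them in fibroblast-like cells.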
